A study of Homo sapiens with 21 samples.

Results

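The RNA of 10 receptor tyrosine kinases was followed in PC-9 cells: EGFR, its family members ERBB2 and ERBB3, MET, AXL, IGF1R, INSR, FGFR1, FGFR2 and EPHA2. They were picked by gene symbol, and all 10 were found among the 20111 genes that both deposited expression tables list. PC-9 is an EGFR-mutant lung adenocarcinoma cell line, and the genotype label of its first library reads EGFR delE746-A750. The last number of that label differs in each of the 21 libraries. EGFR-low and EGFR-high cells are pools sorted from this line over 6 rounds for the 5 to 10% of cells with the lowest or the highest EGFR on their surface, not single clones.

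Polyadenylated RNA was sequenced in 7 groups of 3 libraries. In the first experiment, parental, EGFR-low and EGFR-high cells received no treatment and were harvested 24 h after seeding. In the second, EGFR-low and EGFR-high cells received DMSO, the solvent, or 1 µM vorinostat (SAHA), an inhibitor of histone deacetylases, for 72 h, starting 24 h after seeding. Levels are FPKM, fragments per kilobase of transcript, scaled to the size of the library, so that they can be compared between genes. Log2 fold changes are on the log2(FPKM + 1) scale, which understates the change of low genes. Changes given as x-fold are ratios of group mean FPKM instead, which 1 high library can move. A gene is said to have changed, to be higher or to be lower where the adjusted p of limma with Benjamini-Hochberg adjustment over all genes tested was below 0.05. The 2 experiments were never tested against each other.

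Receptor tyrosine kinases cross the plasma membrane once and carry a kinase domain inside the cell. A ligand brings receptors together, the kinases phosphorylate each other, and adaptors such as GRB2 and SHC1 pass the signal on to the RAS-ERK and PI3K-AKT pathways. Ubiquitin ligases of the CBL family, phosphatases and the inhibitor ERRFI1 end the signal, and ADAM proteases free many ligands from the cell surface. In EGFR-mutant lung cancer, growth depends on EGFR, and MET, AXL, ERBB2, ERBB3, IGF1R and the FGF receptors are known as routes by which cells can bypass its inhibition.

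Some libraries of the second experiment stood apart, and the receptors' results are given without them below where that ended a call or moved a value clearly. On the first principal component (82.5% of the variance), 5 EGFR-low libraries scored between 61.6 and 66.7 and 5 EGFR-high libraries between -67.2 and -59.4, but EGFR-low DMSO replicate 1 scored 25.6 and EGFR-high DMSO replicate 3 scored -26.3. These 2 libraries correlated at 0.953 across 12236 genes, where EGFR-low and EGFR-high libraries other than them correlated at 0.787 to 0.808. The leukocyte genes PTPRC, CD3E and LYZ summed to 9.02 and 3.25 FPKM in these 2 libraries and to at most 0.543 in the other 10. CD68, a further leukocyte gene left out of this sum, did not set them apart. It was at 21.9 and 27.5 FPKM against 14.5 to 36.0 in the other 10. On the second component (6.53%), vorinostat replicate 1 of EGFR-low and of EGFR-high cells scored -23.2 and -47.5 against -0.0469 to 13.1 elsewhere.

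The libraries labelled EGFR-low also differed between the experiments. The untreated EGFR-low libraries correlated at 0.757 to 0.858 with the EGFR-low libraries of the second experiment, and at 0.877 to 0.943 with its EGFR-high libraries. NKX2-1, a transcription factor of lung epithelium, was at 25.6, 51.1 and 37.9 FPKM in EGFR-low DMSO and at 24.1, 48.7 and 43.8 in EGFR-low vorinostat, but at 0.0161 to 0.0690 in untreated EGFR-low cells. It was at 11.1 in EGFR-high DMSO replicate 3 and at most 0.588 in the other EGFR-high libraries of that experiment. What sets these libraries apart was not tested, and line comparisons of the second experiment are therefore comparisons of the libraries so labelled. Of the markers of the line's identity, EPCAM, KRT7, KRT8, KRT18, KRT19 and CDH1 averaged 54.2 FPKM or more in every group, and SFTPB was at 0.0598 or less on average. NAPSA averaged 0.0174 to 0.0445 FPKM in the untreated groups. It averaged 2.23 and 1.28 in EGFR-low DMSO and vorinostat, and 0.314 and 0.224 in EGFR-high DMSO and vorinostat. MUC1 averaged 0.760 to 1.75 in the untreated groups and 6.87 to 10.2 in the second experiment. The 6 fibroblast genes summed to at most 5.88 FPKM in any library, the 4 leukocyte genes, CD68 included, to 14.6 to 39.4, with CD68 alone at 14.5 to 39.3, and the 2 endothelial genes listed to 2.23 to 8.30.

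**Figure D1:**
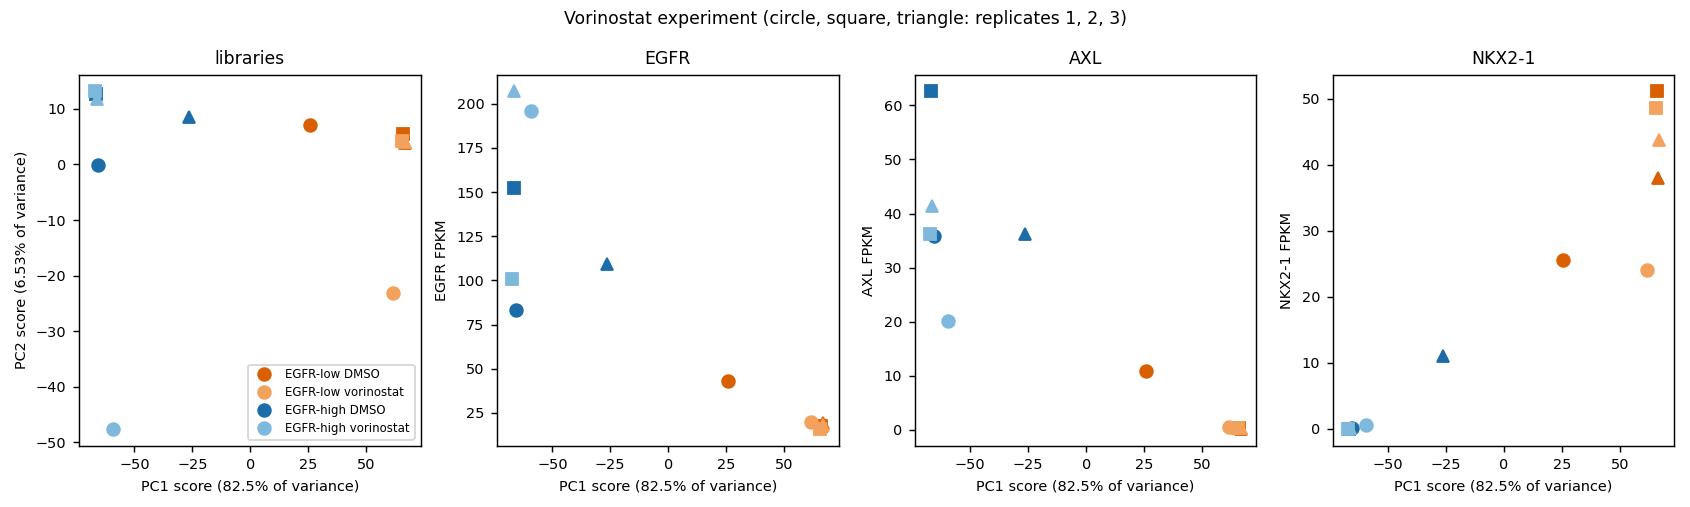
The left panel plots the first against the second principal component score of the 12 libraries of the vorinostat experiment, and the other panels plot EGFR, AXL and NKX2-1 FPKM against the first component. EGFR-low DMSO replicate 1 and EGFR-high DMSO replicate 3 lie between the lines on the first component (25.6 and -26.3), and AXL was at 10.8 FPKM in the first of them against 0.191 to 0.561 in the other 5 EGFR-low libraries.

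EGFR is the receptor for EGF, TGFA, AREG and HBEGF, and its protein was what the cells were sorted on, so its RNA between the lines serves as a check of the labels and not as a finding. In untreated cells EGFR was at 261, 120 and 244 FPKM in parental, 60.2, 26.5 and 60.6 in EGFR-low and 269, 161 and 243 in EGFR-high libraries. Every EGFR-low library lay below every other library, and replicate 2 was the lowest in all 3 groups. EGFR was 4.57-fold lower in EGFR-low cells when set against EGFR-high cells (log2 fold change -2.23 ± 0.40 SE, adjusted p = 0.011) and 4.24-fold lower than in parental cells (-2.08 ± 0.40, adjusted p = 0.0261). The first call was lost without EGFR-high replicate 3 (-2.15, adjusted p = 0.052), and the second was lost without parental replicate 1 or 3 or without any 1 of the EGFR-low libraries (adjusted p = 0.0544 to 0.141). These fits did not pair libraries. With a replicate block that pairs same-numbered libraries, limma gave EGFR an adjusted p of 0.00038 between EGFR-low and EGFR-high cells. In bulk RNA, fewer EGFR-expressing cells and less EGFR RNA per cell cannot be told apart.

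Between EGFR-high and parental cells, EGFR differed by 0.15 ± 0.40 on the log2 scale, which did not pass the test (adjusted p = 0.895). Replicate 2 of the untreated groups also had lower values for long transcripts. Relative to the mean of replicates 1 and 3, the 25% of genes with the longest transcripts were at -0.42 to -0.31 on the log2 scale in median and the 25% with the shortest at -0.013 to 0.46. The longest annotated EGFR transcript has 9821 bases, and the part of transcript length in the spread was not tested. Without the 3 libraries numbered 2, the log2 fold change of EGFR between the lines was -2.06 (adjusted p = 0.00143).

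Under DMSO, EGFR was at 43.3, 17.7 and 19.3 FPKM in EGFR-low and at 83.3, 152 and 109 in EGFR-high libraries. Under vorinostat it was at 19.7, 16.1 and 18.2 in EGFR-low and at 196, 101 and 207 in EGFR-high libraries. The lines did not overlap under either agent, and EGFR-low DMSO replicate 1 was the highest of the 6 EGFR-low libraries. The difference between the lines was -2.13 ± 0.35 under DMSO (adjusted p = 0.00057) and -3.09 ± 0.35 under vorinostat (adjusted p = 4.55e-05), and without the 2 in-between libraries the first was -2.54.

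The stretches of 250 bases before the start of 4 receptors are shown because these 4 had the largest fitted differences between the libraries labelled EGFR-low and EGFR-high under vorinostat, AXL and EGFR lower and FGFR2 and MET higher in EGFR-low. Without the 2 vorinostat libraries numbered 1, EPHA2 (-1.60) lay further from 0 than MET (1.26). They are RefSeq promoters of GRCh38.p14, not the authors' build, each for the first start that the RefSeq table lists, and were read 5′ to 3′ on the gene's strand. Capitals mark GGGCGG on either strand, a GC box as bound by Sp1-type factors.
EGFR (chr7:55018767-55019016, plus strand): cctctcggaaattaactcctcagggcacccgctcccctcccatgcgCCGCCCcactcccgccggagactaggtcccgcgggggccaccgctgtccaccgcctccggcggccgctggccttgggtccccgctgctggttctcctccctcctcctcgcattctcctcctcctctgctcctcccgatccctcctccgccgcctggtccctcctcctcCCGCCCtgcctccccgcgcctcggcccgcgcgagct
AXL (chr19:41218973-41219222, plus strand): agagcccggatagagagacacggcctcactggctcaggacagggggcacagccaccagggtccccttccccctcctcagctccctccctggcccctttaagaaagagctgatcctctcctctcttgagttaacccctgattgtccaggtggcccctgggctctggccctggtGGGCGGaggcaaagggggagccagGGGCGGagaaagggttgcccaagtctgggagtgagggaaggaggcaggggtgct
FGFR2 (chr10:121598445-121598694, minus strand): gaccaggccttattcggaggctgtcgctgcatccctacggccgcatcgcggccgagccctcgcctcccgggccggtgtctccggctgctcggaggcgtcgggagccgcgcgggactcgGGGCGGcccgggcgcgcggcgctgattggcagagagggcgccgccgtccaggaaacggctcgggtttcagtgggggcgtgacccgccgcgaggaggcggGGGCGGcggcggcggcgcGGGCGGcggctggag
MET (chr7:116671946-116672195, plus strand): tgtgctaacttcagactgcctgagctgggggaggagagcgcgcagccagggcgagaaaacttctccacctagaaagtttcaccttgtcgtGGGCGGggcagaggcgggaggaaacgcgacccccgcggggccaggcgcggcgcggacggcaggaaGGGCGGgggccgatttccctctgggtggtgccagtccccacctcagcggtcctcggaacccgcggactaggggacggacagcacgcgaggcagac

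Promoters of 8 of the receptors were read, including these 4. ERBB3 had no match, and FGFR1 was left out. GGGCGG, counted on both strands with overlaps, occurred 2 times in EGFR, MET, AXL and IGF1R, 3 times in FGFR2, 4 times in INSR, 1 time in EPHA2 and 0 times in ERBB2. Of all 35116 promoters of this length, 42.6% hold it. TGANTCA, a looser form of the AP-1 motif TGA(C/G)TCA, occurred in ERBB2 (6.57% of all promoters), and TATAAA in none of the 8 (10.7% of all). The match in ERBB2 reads TGATTCA, which is not TGA(C/G)TCA. The count of CpG was 4 in AXL and 15 to 48 in the other 7, against a median of 11 and quartiles of 3 and 23 over all promoters, and was highest in IGF1R (48) and FGFR2 (42). A match describes these letters and is not a site.

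Across the 10 receptors, EGFR had the highest level in 5 of the 7 groups, the parental, EGFR-high and untreated EGFR-low groups among them, and MET in the 2 EGFR-low groups of the second experiment. In EGFR-low cells without treatment, EGFR (49.1 ± 19.6 FPKM, SD, n = 3) and MET (39.4 ± 10.2) overlapped, whereas in EGFR-high cells EGFR (224 ± 56.7) lay above MET (35.6 ± 6.91) in all libraries. In EGFR-low vorinostat libraries the order was MET (83.8 ± 42.2), ERBB2 (33.6 ± 12.2), ERBB3 (27.0 ± 6.36), EGFR (17.99 ± 1.82), EPHA2 (15.4 ± 3.08), IGF1R (14.3 ± 0.48), INSR (4.49 ± 0.13), FGFR2 (4.49 ± 1.73), FGFR1 (2.24 ± 1.34) and AXL (0.452 ± 0.0951). Of the 9 neighbours in each such order, the ranges of 4 overlapped in parental, 5 in EGFR-low and 6 in EGFR-high cells, and of 5 to 7 in the groups of the second experiment. ERBB4, the remaining member of the EGFR family, was at 0.213 FPKM or less in every library.

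The share of EGFR in the summed FPKM of the 10 receptors describes the same order in 1 number. It was 67.1, 55.1 and 65.7% in parental, 30.5, 22.8 and 28.8% in EGFR-low and 68.6, 57.3 and 60.3% in EGFR-high libraries. In EGFR-low cells it was 20.4, 9.43 and 10.5% under DMSO and 8.34, 8.85 and 9.41% under vorinostat. In EGFR-high cells it was 35.2, 44.7 and 38.2% under DMSO and 62.0, 38.5 and 53.2% under vorinostat. The lines separated fully in all 3 settings, which follows the sort, while vorinostat and DMSO separated in EGFR-low cells (8.87 ± 0.53% against 13.5 ± 6.05%, SD, n = 3) and overlapped in EGFR-high cells (51.2 ± 11.9% against 39.4 ± 4.89%). Exact two-sided permutation tests of 3 against 3 libraries cannot go below p = 0.1, and over the 7 pairwise comparisons the adjusted p was 0.14 for the 5 that separated, 0.233 for vorinostat in EGFR-high cells and 1.0 for EGFR-high against parental. In EGFR-low cells the highest vorinostat share (9.41%) lay just below the lowest DMSO share (9.43%), and the difference of -4.59 percentage points was -1.11 without the 2 in-between libraries. In EGFR-high cells the difference of 11.8 percentage points was 6.44 without the 2 vorinostat libraries numbered 1.

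In untreated cells, EGFR was the 1 receptor of 9 tested that changed between EGFR-low and EGFR-high cells, with 1.62% of all 11305 genes called higher and 2.19% called lower. EGFR, ERBB2 and INSR did not overlap between the groups, where 20.6% of all genes did not. Between EGFR-low and parental cells EGFR was again the 1 called receptor (0.831% of genes higher, 0.77% lower), and EGFR, ERBB2 and ERBB3 did not overlap (17.1% of genes). None of the 9 was called between EGFR-high and parental cells (0.0619% higher, 0.00885% lower), and ERBB3, IGF1R and INSR did not overlap (16.2% of genes). FGFR2 was listed at 0 in all 9 libraries and was not tested. Whether this listed 0 means absence was not tested. FGFR2 is itself among the 59 genes at 0 in all untreated libraries that averaged above 1 FPKM in the second experiment. UBE2M, also at 0 in all untreated libraries, averaged 55.6 FPKM there, with a range of 0.105 to 122.

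ERBB2 has no known ligand of its own and ERBB3 a weak kinase, and the pair signals as a dimer, with NRG1 as the ligand of ERBB3. ERBB2 was at 12.2, 10.99 and 11.7 FPKM in parental, 19.0, 15.6 and 20.7 in EGFR-low and 11.9, 11.7 and 15.5 in EGFR-high libraries. ERBB3 was at 13.3, 12.6 and 9.96 FPKM in parental, 25.1, 20.96 and 25.05 in EGFR-low and 16.1, 15.1 and 21.6 in EGFR-high libraries. Both had their highest mean in EGFR-low cells, where EGFR had its lowest. The EGFR-low against EGFR-high difference was 0.47 ± 0.22 for ERBB2 (adjusted p = 0.394) and 0.42 ± 0.23 for ERBB3 (adjusted p = 0.513), and against parental cells 0.61 ± 0.22 (adjusted p = 0.238) and 0.94 ± 0.23 (adjusted p = 0.0847). None of these passed the test, although ERBB3 against parental cells did without the 3 libraries numbered 2 (1.06, adjusted p = 0.0417).

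AXL, the receptor for GAS6, was at 20.4, 22.7 and 16.9 FPKM in parental, 12.3, 6.502 and 21.6 in EGFR-low and 19.6, 26.9 and 37.6 in EGFR-high libraries. The EGFR-low and EGFR-high libraries overlapped in 1 EGFR-low library, replicate 3, and the difference of -1.10 ± 0.38 did not pass the test (adjusted p = 0.186) and was -0.70 without the 3 libraries numbered 2. MET, the receptor for HGF, ranged from 23.2 to 63.8 FPKM over the untreated libraries, with a difference between the lines of 0.13 ± 0.37 (adjusted p = 0.967). IGF1R, FGFR1, EPHA2 and INSR were each at 4.94 to 18.2, 2.09 to 8.25, 8.26 to 25.8 and 1.18 to 2.57 FPKM, and their differences between the lines were -0.37 ± 0.35, 0.11 ± 0.44, -0.52 ± 0.34 and -0.27 ± 0.20. Adjusted p-values of these 4 were 0.613 to 0.975.

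**Figure D2:**
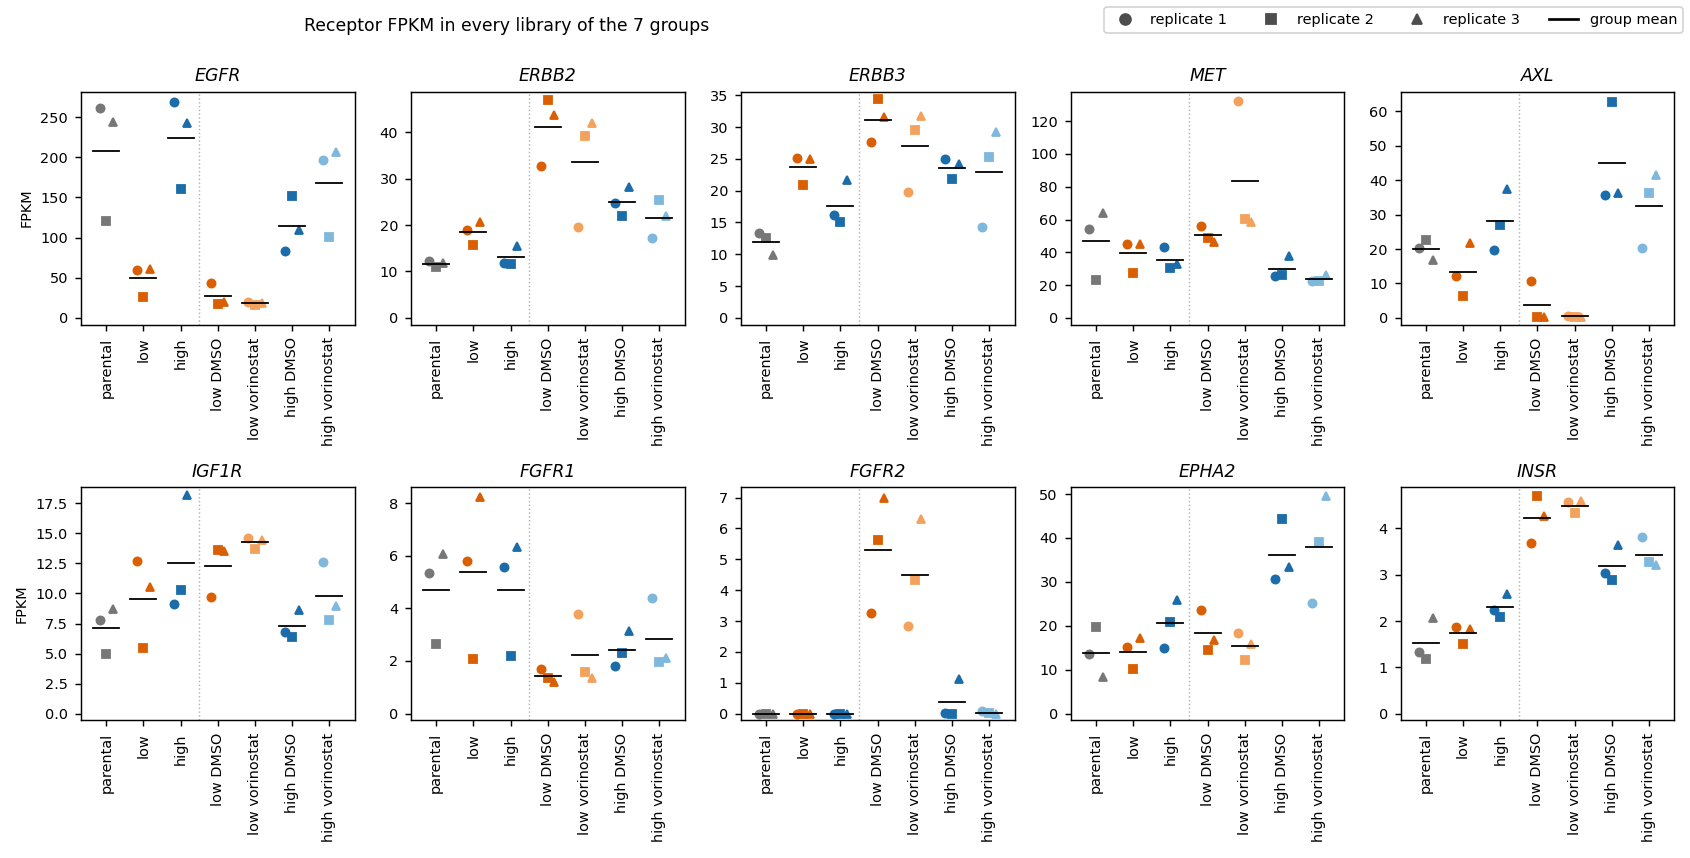
Each panel gives the FPKM of 1 receptor on its own axis, with a point per library and a bar at the group mean, the untreated groups left and the vorinostat experiment right of the dotted line. EGFR is at 16.1 to 60.6 FPKM in all EGFR-low libraries and at 83.3 to 269 in all others, and FGFR2 is at 2.84 to 6.98 in the EGFR-low libraries of the second experiment and at 0 in all untreated ones.

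Under DMSO, 7 of the 10 receptors changed between EGFR-low and EGFR-high libraries. FGFR2, MET, ERBB2 and IGF1R were higher in EGFR-low libraries, while AXL, EGFR and EPHA2 were lower. This was against a background in which 31.1% of 12236 genes were called higher and 20.7% lower. All 10 receptors did not overlap between the lines, as did 69.3% of all genes. Under vorinostat, FGFR2, MET and IGF1R were higher and AXL, EGFR and EPHA2 lower (36.2% of genes higher, 22.8% lower), and 7 receptors did not overlap (60.8% of genes). With 6334 and 7222 of all genes called, the receptors' counts are read against a background of 51.8 and 59.0%. The median difference of all genes was itself 0.12 under DMSO and 0.16 under vorinostat.

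AXL was at 10.8, 0.314 and 0.191 FPKM in EGFR-low DMSO and at 0.561, 0.404 and 0.390 in EGFR-low vorinostat libraries. In EGFR-high libraries it was at 35.8, 62.6 and 36.2 under DMSO and at 20.2, 36.2 and 41.5 under vorinostat. Of the 6 EGFR-low libraries, EGFR-low DMSO replicate 1, one of the in-between libraries, was the 1 above 1 FPKM. The difference between the lines was -4.07 ± 0.69 under DMSO (adjusted p = 0.000655) and -5.27 (adjusted p = 1.41e-06) without the 2 in-between libraries, and -4.47 ± 0.69 under vorinostat (adjusted p = 0.000202). Of these EGFR-low libraries, the 5 other than the in-between one lie below the 6.502 to 21.6 FPKM of untreated EGFR-low cells, values that were scaled in separate tables and not tested against each other.

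FGFR2, a receptor for fibroblast growth factors, was at 3.25, 5.64 and 6.98 FPKM in EGFR-low DMSO and at 2.84, 4.34 and 6.30 in EGFR-low vorinostat libraries. In EGFR-high libraries it was at 0.0130, 0 and 1.12 under DMSO and at 0.0822, 0.00386 and 0 under vorinostat. The value of 1.12 was that of replicate 3, the other in-between library. The difference was 2.24 ± 0.33 under DMSO (adjusted p = 0.000362, and 2.86 without the 2 in-between libraries) and 2.37 ± 0.33 under vorinostat (adjusted p = 0.000102). FGFR2 reached 1 FPKM in the 3 libraries needed for a test only because of its EGFR-low libraries, so the filter favoured this direction. FGFR1, its paralogue, was at 1.202 to 4.40 FPKM in this experiment, and its differences of -0.49 ± 0.29 and -0.26 ± 0.29 were not called (adjusted p = 0.183 and 0.47), although the first was without the 2 vorinostat libraries numbered 1 (adjusted p = 0.0224).

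MET was at 55.7, 48.7 and 46.5 FPKM in EGFR-low DMSO, 132, 60.2 and 58.6 in EGFR-low vorinostat, 25.8, 26.0 and 38.0 in EGFR-high DMSO and 22.5, 22.5 and 26.1 in EGFR-high vorinostat libraries. The highest value belonged to vorinostat replicate 1, which stood apart on the second component. MET was 1.68-fold higher in EGFR-low libraries under DMSO (0.75 ± 0.27, adjusted p = 0.0346) and 3.53-fold higher under vorinostat (1.67 ± 0.27, adjusted p = 0.000265, and 1.26 without the 2 vorinostat libraries numbered 1). The call under DMSO was lost without any 1 of the EGFR-low libraries or without EGFR-high replicate 1 or 2 (adjusted p = 0.0616 to 0.109), without the 2 in-between libraries (0.85, adjusted p = 0.0502), with no filter on low values (adjusted p = 0.062) and with median-of-ratios scaling (0.62, adjusted p = 0.077).

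IGF1R and INSR bind insulin-like growth factors and insulin and are close relatives. IGF1R was at 9.74, 13.6 and 13.5 FPKM in EGFR-low DMSO, 14.6, 13.7 and 14.5 in EGFR-low vorinostat, 6.77, 6.39 and 8.67 in EGFR-high DMSO and 12.6, 7.83 and 8.94 in EGFR-high vorinostat libraries. All EGFR-low libraries lay above all EGFR-high libraries of the same agent. The difference was 0.68 ± 0.18 under DMSO (adjusted p = 0.00908, and 0.94 without the 2 in-between libraries) and 0.53 ± 0.18 under vorinostat (adjusted p = 0.0275), and the second was lost without any 1 of the EGFR-low libraries or without EGFR-high replicate 2 or 3 (adjusted p = 0.0541 to 0.107), with median-of-ratios scaling (0.36, adjusted p = 0.133) and with quantile normalization (0.39, adjusted p = 0.107). INSR was at 3.67, 4.71 and 4.28 FPKM in EGFR-low DMSO, 4.56, 4.34 and 4.58 in EGFR-low vorinostat, 3.03, 2.89 and 3.63 in EGFR-high DMSO and 3.81, 3.28 and 3.21 in EGFR-high vorinostat libraries. The lines did not overlap, but INSR missed the threshold under DMSO (0.32 ± 0.13, adjusted p = 0.0598) and under vorinostat (0.31 ± 0.13, adjusted p = 0.0586). Without the 2 in-between libraries it was called under DMSO (0.47, adjusted p = 0.0235), as it was without either 1 of them (adjusted p = 0.0374 and 0.0416) and without the 2 vorinostat libraries numbered 1 (adjusted p = 0.0419). Under vorinostat it was called without EGFR-high replicate 1 (0.37, adjusted p = 0.0333) and without the 2 in-between libraries (0.31, adjusted p = 0.0489). With all libraries kept, INSR was called with no mean-variance trend under DMSO (adjusted p = 0.0442) and under vorinostat (adjusted p = 0.043). A pseudocount of 5 also gave a call under vorinostat (0.17, adjusted p = 0.048).

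ERBB2 was at 32.6, 46.9 and 43.6 FPKM in EGFR-low DMSO, 19.7, 39.2 and 42.0 in EGFR-low vorinostat, 24.8, 21.9 and 28.1 in EGFR-high DMSO and 17.2, 25.5 and 21.9 in EGFR-high vorinostat libraries. It was 1.65-fold higher in EGFR-low libraries under DMSO (0.69 ± 0.26, adjusted p = 0.0425), a call lost without EGFR-low replicate 2 or 3 or EGFR-high replicate 1 or 2 (adjusted p = 0.0912 to 0.136), with no filter (adjusted p = 0.0725) and with median-of-ratios scaling (0.56, adjusted p = 0.0648). It was 0.93 (adjusted p = 0.0331) without the 2 in-between libraries. Under vorinostat the difference of 0.56 ± 0.26 was not called (adjusted p = 0.0796), but it was with the replicate block that pairs same-numbered libraries (adjusted p = 0.0281) and without EGFR-low vorinostat replicate 1 (0.90, adjusted p = 0.00272) or both vorinostat libraries numbered 1 (0.75, adjusted p = 0.0057). ERBB3 ranged from 14.3 to 34.3 FPKM, and its differences of 0.38 ± 0.24 and 0.25 ± 0.24 were not called (adjusted p = 0.197 and 0.376), although the first was when the DMSO groups were fitted alone (adjusted p = 0.0251) or without the 2 vorinostat libraries numbered 1 (adjusted p = 0.0128).

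EPHA2, a receptor for ephrin-A ligands such as EFNA1, was at 23.6, 14.5 and 16.8 FPKM in EGFR-low DMSO, 18.3, 12.2 and 15.8 in EGFR-low vorinostat, 30.6, 44.4 and 33.4 in EGFR-high DMSO and 25.1, 39.1 and 49.4 in EGFR-high vorinostat libraries. Every EGFR-low library was below every EGFR-high library of both agents. The difference was -0.95 ± 0.26 under DMSO (adjusted p = 0.00867) and -1.21 ± 0.26 under vorinostat (adjusted p = 0.00167). The first was -1.19 without the 2 in-between libraries, and the second -1.60 without the 2 vorinostat libraries numbered 1.

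**Figure D3:**
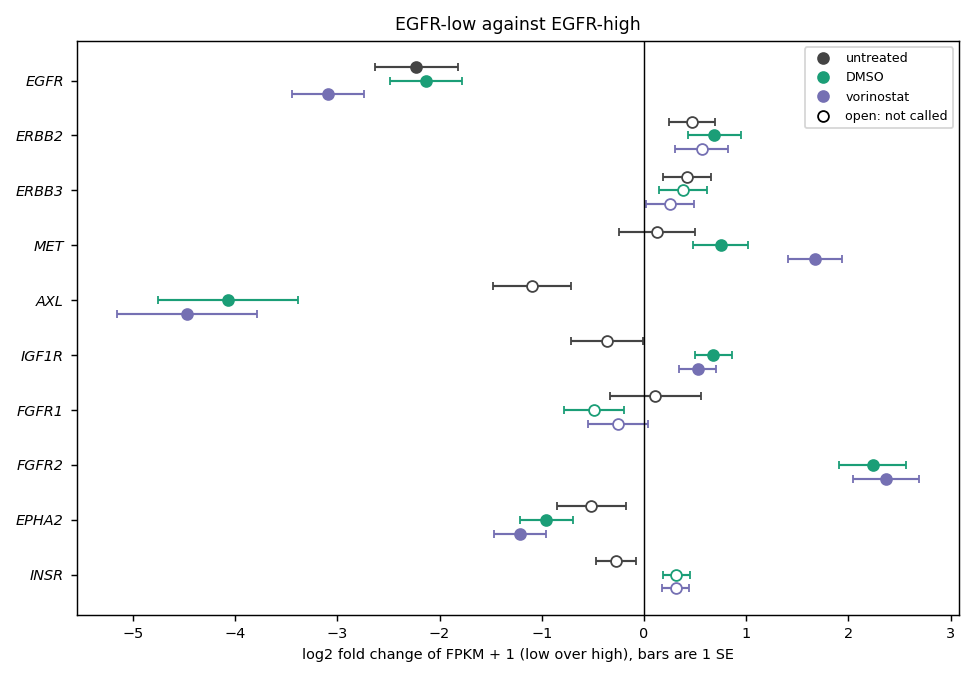
Points give the log2 fold change of FPKM + 1 of EGFR-low over EGFR-high cells for each receptor in 3 settings, with bars of 1 SE, filled where the adjusted p was below 0.05. EGFR lies left of 0 in all 3 (-2.23, -2.13 and -3.09), whereas AXL reaches -4.07 and -4.47 in the second experiment against -1.10 in untreated cells, and FGFR2 has no untreated point.

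Vorinostat was compared with DMSO to see which receptors it moved. No receptor was called in either line, as 0% of the 12236 genes were called higher and 0% lower by limma in EGFR-low or in EGFR-high cells, and no difference between the lines in this effect was called. At an unadjusted p below 0.05 there were 115 genes in EGFR-low and 409 in EGFR-high cells, and 215 for the difference. Each count is less than a 0.05 share of the 12236 genes, the share that would fall there on average with no effect if the fitted spread holds. The libraries that stood apart entered that spread, and the pairing of libraries was left out. These counts therefore do not show that vorinostat had no effect. With the replicate block, 0 genes were called too. EGFR was at -0.44 ± 0.35 in EGFR-low and 0.52 ± 0.35 in EGFR-high cells on the log2 scale, and the difference of these effects was -0.96 ± 0.49 (unadjusted p = 0.0778, adjusted p = 0.999). Without the 2 in-between libraries the values of EGFR were -0.044 and 0.50 and their difference -0.55. In EGFR-low cells EGFR was at 17.99 ± 1.82 FPKM under vorinostat against 26.8 ± 14.3 under DMSO (SD, n = 3).

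MET had an effect of 0.62 ± 0.27 in EGFR-low cells (unadjusted p = 0.0396, adjusted p = 0.9999), with every vorinostat library above every DMSO library. In EGFR-high cells it was at -0.30 ± 0.27, and the difference of the effects was 0.93 ± 0.38 (unadjusted p = 0.0316, adjusted p = 0.999). Without the 2 in-between libraries the effect on MET in EGFR-high cells was -0.13. Without the 2 vorinostat libraries numbered 1, the effect on MET in EGFR-low cells was 0.24 and the difference of the effects 0.51. MET and IGF1R were the 2 receptors without overlap between the agents in EGFR-low cells (9.46% of genes), and 0 receptors were in EGFR-high cells (5.33% of genes). IGF1R was at 0.21 ± 0.18 and 0.37 ± 0.18 in EGFR-low and EGFR-high cells. The first was 0.066 without the 2 in-between libraries, and the second 0.19 without the 2 vorinostat libraries numbered 1.

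AXL was at -0.87 ± 0.69 in EGFR-low cells, which turned to 0.21 without the 2 in-between libraries, and at -0.46 ± 0.69 in EGFR-high cells. The effects on ERBB2, ERBB3, FGFR1, FGFR2, EPHA2 and INSR lay between -0.34 and 0.35 in EGFR-low and between -0.33 and 0.12 in EGFR-high cells. In EGFR-low cells they lay between -0.49 and 0.44 without the 2 in-between libraries. These results do not show that vorinostat left the receptors as they were, since the SE of an effect was 0.13 to 0.69.

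**Figure D4:**
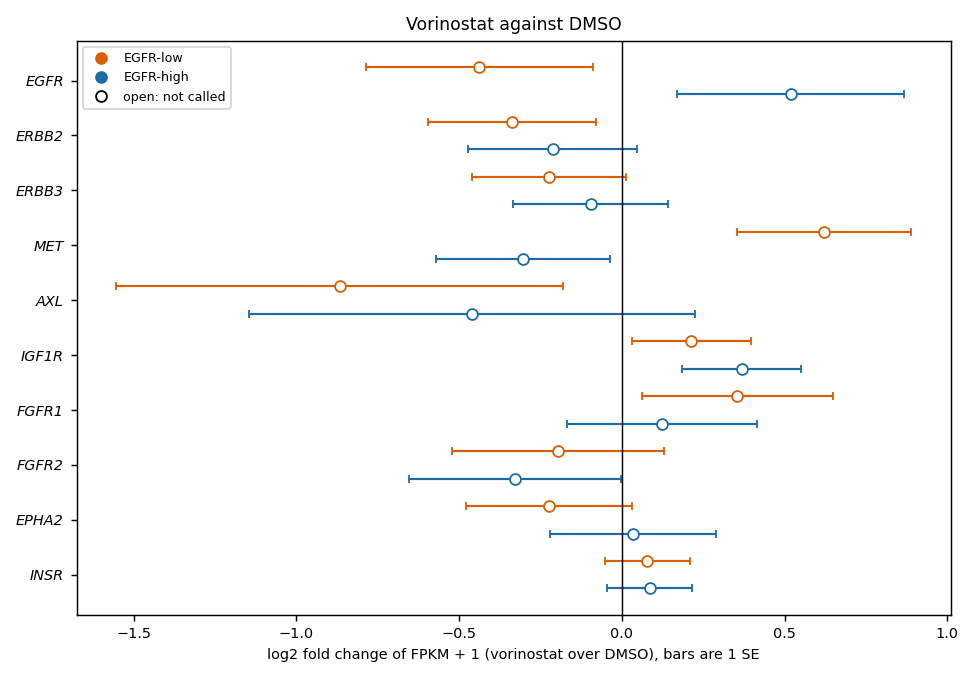
Points give the log2 fold change of FPKM + 1 under vorinostat over DMSO for each receptor, with bars of 1 SE, in EGFR-low and EGFR-high cells. All points are open, as none was called, and EGFR (-0.44 and 0.52) and MET (0.62 and -0.30) lie on opposite sides of 0 in the lines.

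The other receptor tyrosine kinases, 48 listed genes, gave the family around these 10. Of the 17 tested in untreated cells, 0 were called between EGFR-low and EGFR-high cells, with a median difference of -0.19 against -0.029 over all genes. The shares of all genes called there were 1.62% higher and 2.19% lower. With the replicate block that pairs same-numbered libraries, ROR1 was called lower (-1.07, adjusted p = 0.00754). In the second experiment 22 were tested, and 7 were higher, 6 lower and 9 not called under DMSO (median 0.069 against 0.12 over all genes), with the same counts under vorinostat. The shares of all genes called were 31.1% higher and 20.7% lower under DMSO, and 36.2% and 22.8% under vorinostat. KDR, a VEGF receptor, was at 3.65 ± 0.12 FPKM in EGFR-low and 0.296 ± 0.507 in EGFR-high DMSO libraries (1.91 ± 0.22, adjusted p = 0.000327). NTRK2, a neurotrophin receptor, and MERTK, a relative of AXL, were also higher, by 1.79 ± 0.32 and 1.41 ± 0.35. EPHB6, which lacks kinase activity, ROR1, a WNT5A receptor, and the collagen receptor DDR1 were lower, by -3.25 ± 0.47, -1.72 ± 0.22 and -1.67 ± 0.22. Under vorinostat EPHA4 took the place of ROR1 among the 3 most strongly lower receptors (-2.14 ± 0.26).

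Among 40 ligands of these receptors, 11 could be tested in untreated cells and 14 in the second experiment. NRG1, the ligand of ERBB3, was higher in untreated EGFR-low cells when set against EGFR-high ones, at 1.25 ± 0.40 against 0.236 ± 0.0746 FPKM (0.85 ± 0.19, adjusted p = 0.0282), and the other 10 were not called. The call of NRG1 was lost without any 1 of 5 of the 6 libraries, all but EGFR-low replicate 2 (adjusted p = 0.0802 to 0.135), and without the 3 libraries numbered 2 (adjusted p = 0.071). The median was 0.007 against -0.029 over all genes, of which 1.62% were called higher and 2.19% lower. Under DMSO 5 ligands were higher and 4 lower (median 0.18 against 0.12 over all genes), and the counts under vorinostat were also 5 and 4. Beside these stand 31.1% of all genes called higher and 20.7% lower under DMSO, and 36.2% and 22.8% under vorinostat. Higher were PROS1 (27.9 ± 6.59 against 2.54 ± 3.62 FPKM), a ligand of the AXL family that acts on MERTK and TYRO3, EFNA1, the ligand of EPHA2 (43.1 ± 10.5 against 10.6 ± 6.08), and AREG (16.5 ± 3.55 against 3.91 ± 2.51). The call of AREG was lost without any 1 of 5 of the 6 libraries, all but EGFR-high replicate 3 (adjusted p = 0.0539 to 0.0904).

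Lower under DMSO were HBEGF (2.78 ± 2.24 against 21.7 ± 10.4 FPKM), GAS6 (0.716 ± 0.939 against 7.47 ± 3.01) and TGFA (10.3 ± 1.64 against 21.7 ± 5.86). EFNA1 and AREG were thus higher where their receptors EPHA2 and EGFR were lower. PROS1 and MERTK were both higher. HBEGF and TGFA were lower where EGFR was lower, and GAS6 where AXL was lower. As 51.8% of all genes were called under DMSO, many pairs of genes would change together, and these pairs were not tested. HBEGF, GAS6 and TGFA were lower under vorinostat as well (-3.65 ± 0.52, -2.84 ± 0.33 and -1.28 ± 0.19), and NRG1 was higher (1.51 ± 0.29, adjusted p = 0.000809).

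Of 29 adaptors, negative regulators and sheddases, 27 were tested in untreated cells. CBLB, a ubiquitin ligase that removes active receptors, was higher in EGFR-low relative to EGFR-high cells, at 10.1 ± 0.49 against 3.01 ± 0.79 FPKM (1.49 ± 0.25, adjusted p = 0.00672). ERRFI1, an inhibitor of the EGFR kinase, was lower (30.1 ± 2.75 against 74.0 ± 2.71 FPKM, -1.27 ± 0.22, adjusted p = 0.00735), and so was the receptor phosphatase PTPRJ (9.70 ± 2.49 against 22.0 ± 3.53 FPKM, -1.12 ± 0.27, adjusted p = 0.0425). ERRFI1 was also lower than in parental cells (-1.005 ± 0.22, adjusted p = 0.0451), where the other 26 were not called. The call of PTPRJ was lost without any 1 of the 6 libraries (adjusted p = 0.0656 to 0.179), that of ERRFI1 between the lines without EGFR-low replicate 1 (adjusted p = 0.0535) and that of ERRFI1 against parental cells without any 1 of the 6 libraries (adjusted p = 0.0528 to 0.244). The other 24 were not called between the lines, and the median was -0.025 against -0.029 over all genes. Over all genes, 1.62% were called higher and 2.19% lower between the lines, and 0.831% and 0.77% against parental cells.

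In the second experiment all 29 were tested, with 6 higher and 9 lower under DMSO (median -0.037 against 0.12 over all genes) and 7 higher and 11 lower under vorinostat (median -0.34 against 0.16). The background over all genes was 31.1% higher and 20.7% lower under DMSO, and 36.2% and 22.8% under vorinostat. Without the 2 in-between libraries 4 were higher and 6 lower under DMSO, where 6058 of all 12236 genes were called. The genes named from the lists under DMSO were then all called. LRIG1, which lowers ErbB receptors, CBLB and LRIG3 were higher under DMSO, by 1.43 ± 0.17, 0.71 ± 0.12 and 0.69 ± 0.15. GAB2 and IRS2, adaptors of receptor signalling, and the phosphatase PTPRF were lower, by -2.04 ± 0.30, -2.004 ± 0.33 and -0.65 ± 0.14. Under vorinostat SOS2, an exchange factor for RAS, was higher (0.64 ± 0.18), as were LRIG1 and LRIG3, and GAB2, IRS2 and PTPRF were again lower.

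The genes whose pattern was most like that of EGFR were UBASH3B, SIRPB1, TFG, KRT5 and NFATC2. They had the highest value, of 11117 genes, of the lower of 2 Pearson correlations with EGFR, 1 over the 9 untreated libraries and 1 over the 12 libraries of the second experiment. That value was 0.962, 0.961, 0.959, 0.958 and 0.955 in this order. UBASH3B was at 19.1 ± 5.30 FPKM in EGFR-low, 59.1 ± 9.62 in EGFR-high and 50.4 ± 14.7 in parental cells. KRT5, a basal cell keratin, was at 12.8 ± 7.66 in EGFR-low and 75.7 ± 29.1 in EGFR-high cells. The libraries of a group share their line, and the spread of replicate 2 enters each value, so these correlations are descriptions.

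Among the receptors themselves, the correlation with EGFR was 0.723 over the 9 untreated and 0.945 over the 12 other libraries for AXL, and -0.64 and -0.75 for ERBB2. EPHA2 (0.202 and 0.908), MET (0.367 and -0.81) and INSR (0.356 and -0.84) followed EGFR differently in the 2 experiments. IGF1R was at 0.299 and -0.73, ERBB3 at -0.61 and -0.54 and FGFR1 at 0.313 and 0.518. The untreated values share the low levels of long transcripts in replicate 2, whose part in them was not tested.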

How the data were processed

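Per the labels, libraries were made from polyadenylated RNA by the Kapa mRNA Hyper Prep method of Roche. The submitters' processing notes name STAR 2.5.1b, Cufflinks 2.2.1, DESeq2 1.10.1 and the build hg19. The deposited values were taken as FPKM made by the authors with Cufflinks, as inferred from their decimals and from library sums of 467900 to 592900. The naming calls them gene counts. The number of reads is unknown. Steps of whole reads among low values gave depths of 0.779 to 1.63 relative to parental replicate 2, and of 0.824 to 1.38 relative to EGFR-low DMSO replicate 2, apart from EGFR-low DMSO replicate 1, where 1.89 and 0.946 were nearly as likely.

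Genes reaching 1 FPKM in 3 or more libraries of an experiment entered the fit. In the second experiment, for example, FGFR2, KDR, NTRK2 and LRIG1 would not have entered without their EGFR-low libraries. The same holds for AXL, EPHB6 and GAS6 without their EGFR-high libraries. For such genes the filter favoured the direction found. It may also have favoured that of NRG1, which reached 1 FPKM in EGFR-low but not in EGFR-high libraries, both untreated and under vorinostat. Each experiment was fitted on its own with limma 3.58.1 (R 4.3.3) on log2(FPKM + 1), 1 mean per group and a mean-variance trend, and checked on simulated data. Share tests and figures used Python 3.11.15. The replicate number was taken to pair libraries where all 3 same-numbered pairs of group deviations correlated above 0.1, as in the untreated lines (0.343, 0.73, 0.689), the lines under vorinostat (0.353, 0.351, 0.163) and vorinostat against DMSO in EGFR-low cells (0.267, 0.302, 0.329). The values given above leave this pairing out unless the replicate block is named. Replicates are independent experiments per the paper's methods. Members, lists and tests were chosen with earlier results of these data known. All 10 receptors are named, with ERBB4, up to 3 called genes without overlap per list and direction, and the 5 genes most like EGFR. In each experiment the columns of all libraries were used.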

Additional observations from a re-analysis of the deposited data

Results flagged for a closer look

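INSR went in opposite directions between the lines in the 2 experiments. Every untreated EGFR-low library (1.87, 1.49 and 1.84 FPKM) lay below every untreated EGFR-high library (2.24, 2.08 and 2.57 FPKM), whereas under DMSO every EGFR-low library (3.67, 4.71 and 4.28 FPKM) lay above every EGFR-high library (3.03, 2.89 and 3.63 FPKM). The log2 fold change was -0.27 ± 0.20 SE without treatment and 0.32 ± 0.13 under DMSO. Neither passed limma's test, and the difference between the experiments was not tested. The lines did not overlap for 20.6% of all genes without treatment and for 69.3% under DMSO. IGF1R and FGFR1 changed sign too, from -0.37 ± 0.35 to 0.68 ± 0.18 and from 0.11 ± 0.44 to -0.49 ± 0.29. Their untreated lines overlapped, and of these values only the 0.68 of IGF1R was called.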

How the results depend on the processing

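The number of reads behind the values is unknown, and 3 libraries a group limit the precision: the SE of a receptor's difference was 0.13 to 0.69 on the log2 scale. Leaving out the 2 in-between DMSO libraries, the 2 vorinostat libraries numbered 1 or the 3 untreated libraries numbered 2 was chosen after seeing the data. Causes of the changes below were not tested. The fit of the compared groups alone gives nothing new for the difference of the vorinostat effects, which uses all groups, and FGFR2 had no test in untreated cells.

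Without treatment, 431 genes were called between EGFR-low and EGFR-high cells, against 660 with no filter on low values, 206 with a filter of 5 FPKM and 205 to 337 without 1 library. Against parental cells, EGFR-low gave 181 called genes, 331 with no filter, 82 with the filter of 5 FPKM, 107 with the compared groups alone, 929 without the libraries numbered 2 and 67 to 252 without 1 library. Of the receptors, 1 was called in each of these comparisons, and 0 to 1 without 1 library. Against parental cells 0 receptors were called with no filter or with the compared groups alone, and 2 without the libraries numbered 2. Between EGFR-high and parental cells 8 genes were called, against 15 with no filter, 3 with the filter of 5 FPKM, 2 with the compared groups alone, 4 without the libraries numbered 2 and 2 to 8 without 1 library. With no filter, 1 gene was called for vorinostat in EGFR-low cells and 1 for the difference of the effects.

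With the replicate block that pairs same-numbered libraries, 965 genes were called between the untreated lines. For EGFR-low against parental cells, where the numbers were not shown to pair the libraries, the replicate block gave 525 genes and 2 receptors, EGFR and ERBB3 (adjusted p = 0.0379). There it also called ROR1 (-0.79, adjusted p = 0.0368), HBEGF (-0.82, adjusted p = 0.0292) and CBLB (0.85, adjusted p = 0.0374). Apart from ERBB2 under vorinostat and ROR1 between the untreated lines, given above, it changed no other call among the 10 receptors or in the counts of the other receptor tyrosine kinases.

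Of the genes named from the lists, NRG1 between the untreated lines was not called with a pseudocount of 5 (adjusted p = 0.0608) or with no mean-variance trend (0.0655), PTPRJ with the filter of 5 FPKM (0.0546) or the compared groups alone (0.0525), and AREG under DMSO with no filter (0.0571). ERRFI1 against parental cells was not called with a pseudocount of 5, the filter of 5 FPKM, either scaling or the compared groups alone (adjusted p = 0.0509 to 0.156).

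The log2 fold changes that turned direction were not called. With quantile normalization, EGFR-low against parental cells gave -0.049 for FGFR1, -0.01 for EPHA2 and -0.014 for INSR, and EGFR-high against parental cells gave an EGFR share higher by 0.731 percentage points. Without the libraries numbered 2, FGFR1 was at 0.056 in EGFR-high against parental cells. Without the 2 in-between libraries, vorinostat gave 0.21 for AXL in EGFR-low cells, 0.031 for FGFR2 and -0.012 for EPHA2 in EGFR-high cells, and differences of the effects of 0.80 for AXL and -0.49 for FGFR2. Without the 2 vorinostat libraries numbered 1 it gave 0.036 for FGFR2 in EGFR-low cells, 0.20 for ERBB3 and -0.16 for FGFR1 in EGFR-high cells, and differences of 0.067 for ERBB2, 0.0088 for IGF1R and 0.044 for INSR. A pseudocount of 5 gave a difference of -0.026 for FGFR2.

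Without 1 library, FGFR1 ranged from -0.26 to 0.56 between the untreated lines. For EGFR-low against parental cells, MET ranged from -0.60 to 0.11, FGFR1 from -0.25 to 0.54 and EPHA2 from -0.23 to 0.35. For EGFR-high against parental cells, EGFR ranged from -0.20 to 0.37, FGFR1 from -0.32 to 0.35 and the EGFR share from -4.32 to 1.84 percentage points. Between the lines under vorinostat, ERBB3 ranged from -0.039 to 0.46 and FGFR1 from -0.58 to 0.022. The vorinostat effect in EGFR-low cells ranged from -1.44 to 0.21 for AXL and from -0.46 to 0.036 for FGFR2. In EGFR-high cells it ranged from -0.29 to 0.20 for ERBB3, -0.16 to 0.28 for FGFR1, -0.51 to 0.031 for FGFR2 and -0.18 to 0.29 for EPHA2. The difference of the effects ranged from -0.32 to 0.21 for ERBB2, -0.42 to 0.075 for ERBB3, -0.98 to 0.67 for AXL, -0.30 to 0.024 for IGF1R, -0.087 to 0.51 for FGFR1, -0.23 to 0.36 for FGFR2 and -0.084 to 0.060 for INSR.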
